A study of Mus musculus with 6 samples.

Results

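The nuclear-encoded genes of the mitochondrial respiratory chain were examined in RNA-Seq libraries of long-term (LT)-CML stem cells, as protein-coding rows of the deposited table whose names begin with the stems Nduf, Sdh, Uqcr, Cox or Atp5 followed by a subunit letter or number. The rule found 87 rows among 36976 genes, of which 38 belong by name to complex I, 4 to complex II, 8 to complex III, 19 to complex IV and 18 to complex V. Levels are given as FPKM, the number of sequenced fragments scaled to exon length and to library depth, which lets genes of unlike length be compared. All 87 passed the filter used for testing (a mean over the 6 libraries of 0.05 or more), and 84 reached a mean of 1.

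The cells were sorted from the bone marrow of C57BL/6 mice that carry the transgenes SCL-tTA and TRE-BCR-ABL1, a tetracycline-controlled model of chronic myelogenous leukaemia (tet-CML) in which the promoter of the stem cell gene SCL drives the transactivator. Both groups carried these transgenes and were studied 5 weeks after doxycycline was withdrawn from animals 5 weeks old, and the groups differed by Gdpd3, which encodes a lysophospholipase D and was disrupted in its first exon by genome editing. There were 3 libraries of Gdpd3+/+ cells (replicates 1, 2 and 3) and 3 of Gdpd3-/- cells (replicates 5, 6 and 7). Donors were 22 male and 12 female mice for Gdpd3+/+ and 5 male and 5 female mice for Gdpd3-/-, so cells of several animals were pooled and p-values measure the spread between these libraries.

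The respiratory chain sits in the inner mitochondrial membrane. Complex I takes electrons from NADH and complex II takes them from succinate, ubiquinone carries them to complex III, cytochrome c carries them on to complex IV, and complex IV passes them to oxygen. Complexes I, III and IV pump protons, and complex V, the ATP synthase, uses the resulting gradient to make ATP. A small set of subunits is encoded in the mitochondrial genome, and the others are nuclear genes whose proteins are imported. Several complex IV subunits exist as tissue isoforms, with forms typical of heart and skeletal muscle beside forms found in most tissues. Long-term haematopoietic stem cells are known for a low use of oxidative phosphorylation compared with their progeny.

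Depth on genes was 49753146 to 62762437 fragments in the Gdpd3+/+ libraries and 21334716 to 36421439 in the Gdpd3-/- libraries. Gdpd3 itself had an FPKM of 7.30, 3.29 and 2.95 in Gdpd3+/+ cells and of 0.110, 0.0129 and 0.681 in Gdpd3-/- cells, so the groups did not overlap. Its log2 fold change was -4.00 (limma, adjusted p = 0.0588). Of the sorted phenotype, Kit, Ly6a, Slamf1, Procr, Hlf and Mecom were present in every library, while Flt3, the gene of a marker that the sort excluded, was at 9.80 to 11.0 in Gdpd3+/+ and 36.8 to 46.5 in Gdpd3-/- cells (adjusted p = 0.00562). Of the other markers that the sort excluded, none passed the test. Cd48 was higher in every Gdpd3-/- library, at 51.6, 54.0 and 92.2 FPKM against 39.8 to 44.8 (log2 fold change 0.60, adjusted p = 0.188), and Itgam was lower in every one, at 13.4, 1.69 and 8.43 against 19.3 to 22.3 (-1.82, adjusted p = 0.193). Cd4 and Ly6g overlapped between the groups, and Cd8a was at or near 0 throughout. Skeletal muscle genes, which the sorted cells should lack, differed between libraries. The summed FPKM of 12 muscle markers, among them the actin gene Acta1 and the creatine kinase gene Ckm, reached 1327, 927 and 899 in the libraries of Gdpd3+/+ cells and 11519, 16545 and 2209.7 in those of Gdpd3-/- cells, in the order of their numbers. None of the 12 was at 0 in any library. All 12 were higher in every Gdpd3-/- library than in every Gdpd3+/+ library, against 23.5% of all genes tested. Plasma cell genes moved the other way, with all 5 lower in every Gdpd3-/- library (8.27% of all genes tested were). Of these, Xbp1 and Mzb1 passed the limma test (adjusted p = 0.0334 and 0.0484). Erythroid genes also varied between libraries, but all 5 overlapped between the groups and 0 passed the test. Their median log2 ratios to the Gdpd3+/+ mean were -1.50, -0.50 and 0.24 in replicates 5, 6 and 7. The haemoglobin gene Hba-a1 was at 1312, 953 and 773 FPKM in Gdpd3+/+ and 350, 700 and 1171 in Gdpd3-/- cells. The part of muscle RNA in the results that follow was not tested, and its values are given beside them.

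The promoters of 5 members are shown because their genes come back in the results: Sdha and Sdhb code for adjoining subunits of complex II with unlike values, and Cox6a1, Cox8a and Cox8b are isoform genes of complex IV. The sequences are the 250 bases before the start of each gene, 5′ to 3′ on the gene's strand, from RefSeq with build GRCm38.p6. They lie at chr13:74350241-74350490 (minus strand) for Sdha, chr4:140961021-140961270 (plus strand) for Sdhb, chr5:115348959-115349208 (minus strand) for Cox6a1, chr19:7217617-7217866 (minus strand) for Cox8a and chr7:140900447-140900696 (minus strand) for Cox8b. Capitals mark matches on either strand to the core motif of nuclear respiratory factor NRF1 (GCGCA, any base, then GCGC), to CCGGAAG, an ETS-type motif of the kind bound by GABP, to CAGCTG, an E-box of the kind bound by muscle regulators, or to TATAAA.
Sdha: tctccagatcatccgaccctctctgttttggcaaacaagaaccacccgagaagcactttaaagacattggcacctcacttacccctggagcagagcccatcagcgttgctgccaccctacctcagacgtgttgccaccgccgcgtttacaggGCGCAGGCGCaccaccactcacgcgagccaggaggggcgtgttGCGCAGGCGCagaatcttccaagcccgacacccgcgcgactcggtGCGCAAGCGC
Sdhb: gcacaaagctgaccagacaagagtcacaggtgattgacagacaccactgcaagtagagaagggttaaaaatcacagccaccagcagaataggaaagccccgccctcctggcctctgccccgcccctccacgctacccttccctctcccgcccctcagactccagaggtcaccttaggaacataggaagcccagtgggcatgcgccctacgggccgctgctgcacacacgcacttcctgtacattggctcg
Cox6a1: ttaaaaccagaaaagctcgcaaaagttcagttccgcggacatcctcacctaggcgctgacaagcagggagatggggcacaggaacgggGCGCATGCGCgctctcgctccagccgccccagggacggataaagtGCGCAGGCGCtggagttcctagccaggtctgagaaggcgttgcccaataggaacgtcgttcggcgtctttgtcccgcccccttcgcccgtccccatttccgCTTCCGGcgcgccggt
Cox8a: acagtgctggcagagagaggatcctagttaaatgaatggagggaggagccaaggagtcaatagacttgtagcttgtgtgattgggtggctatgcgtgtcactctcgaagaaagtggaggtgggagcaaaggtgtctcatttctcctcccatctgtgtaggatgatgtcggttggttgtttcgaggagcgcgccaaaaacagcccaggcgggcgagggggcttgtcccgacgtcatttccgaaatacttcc
Cox8b: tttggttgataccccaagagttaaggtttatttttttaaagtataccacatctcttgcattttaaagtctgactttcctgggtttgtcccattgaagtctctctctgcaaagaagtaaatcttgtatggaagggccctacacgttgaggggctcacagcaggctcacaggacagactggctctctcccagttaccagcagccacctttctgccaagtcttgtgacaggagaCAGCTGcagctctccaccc

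The Sdha promoter held 3 matches to the NRF1 motif, and that of Cox6a1 held 2 together with a match to CCGGAAG. Cox8b, the muscle isoform gene, held CAGCTG, and Cox8a and Sdhb held no complete match in these 250 bases. The search itself used 300 bases, with 50 bases after the start, in which CCGGAAG was also found in Sdhb and at 2 positions in Cox8a, and in which Cox8b held TATAAA and another CAGCTG. Among the 67 members with an entry, the NRF1 motif was present in 17 (25.4%) against 5.19% of 27025 genes, and CCGGAAG in 16 (23.9%) against 9.93%. CAGCTG was present in 6 (8.96%) against 18.3%, and TATAAA in 7 (10.4%) against 15.7%. A match describes letters and not a bound site. Cox6a2 and Ndufs1 are not in the promoter table.

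The fragments that fell in the 87 members made up 1.37%, 1.38% and 1.37% of all gene fragments in Gdpd3+/+ cells. Among Gdpd3-/- cells their share was 2.77% in replicate 5, 3.46% in replicate 6 and 1.69% in replicate 7. Their summed FPKM was 10971 ± 48.2 (mean ± s.d., n = 3) in Gdpd3+/+ and 24384 ± 9561 (n = 3) in Gdpd3-/- cells, a ratio of 2.22 between the group means. The Gdpd3+/+ libraries were nearly level and the Gdpd3-/- libraries were spread, with replicate 6 highest, replicate 5 next and replicate 7 just above Gdpd3+/+. Replicate 7 alone gave a ratio of 1.28 to the Gdpd3+/+ mean. Bulk RNA cannot tell more cells that express these genes from more RNA per cell.

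**Figure D1:**
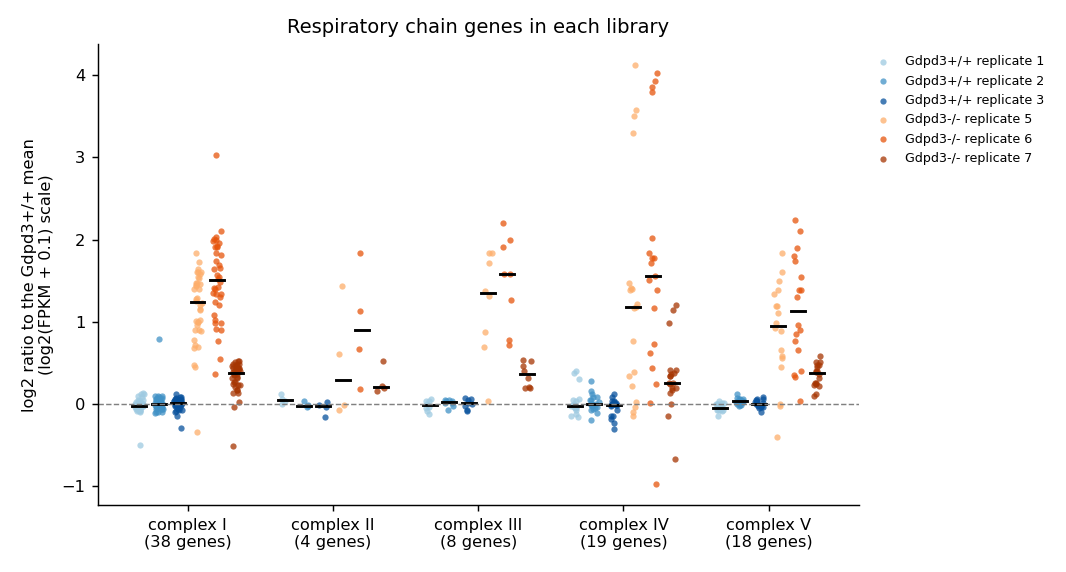
Each point is a respiratory chain gene in a library, as its log2 ratio to the Gdpd3+/+ mean of that gene on the log2(FPKM + 0.1) scale, grouped by complex, with a black bar at each library's median. The 3 Gdpd3+/+ libraries stay close to 0, while Gdpd3-/- replicates 5 and 6 lie well above them in complexes I, III, IV and V and replicate 7 slightly above, with medians over all 87 genes of 1.18, 1.42 and 0.35. In complex II the medians of replicates 5, 6 and 7 are 0.30, 0.90 and 0.21.

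The order of the libraries was shared by most members. In 72 of 87 members every Gdpd3-/- library lay above every Gdpd3+/+ library, which 23.5% of all 24689 genes tested did. With TMM factors this held for 52 members (14.5% of all genes), and after rescaling FPKM to the same sum in each library (TPM) for 80 (36.1%). In 67 members the order was replicate 6, then 5, then 7, then all Gdpd3+/+ libraries, an order seen in 7.51% of all genes. This is the order of the members' own summed FPKM, so the count is a description and not a test. A single member, Cox4i2, was lower in every Gdpd3-/- library (8.27% of all genes). The groups overlapped in 14 members, which were Ndufa1, Ndufa4l2 and Ndufs1 of complex I, Sdha and Sdhd of complex II, Uqcrc2 of complex III, Cox6a1, Cox6b2, Cox7b2 and Cox8c of complex IV, and Atp5a1, Atp5b, Atp5s and Atp5sl of complex V. Ndufa1, Atp5a1, Atp5s and Atp5sl were named after their values were seen.

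No member passed the test in either direction (limma on log2(FPKM + 0.1) with Benjamini-Hochberg adjustment over all genes tested), where 1.71% of all genes did and 1.09% did so as higher in Gdpd3-/-. The smallest adjusted p among the members was 0.0585, for Ndufs4. At an unadjusted p under 0.05 there were 72 of 87 members, against 22.2% of all genes. The log2 fold change was above 0 in 85 members (65.1% of all genes), and its median was 1.01 over the members and 0.24 over all genes tested. Medians were 1.08 in complex I, 0.46 in complex II, 1.11 in complex III, 1.03 in complex IV and 0.80 in complex V.

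The call depended on replicate 7 and on the scaling. Without it, 70 members were called higher in Gdpd3-/- and none lower, with a median log2 fold change of 1.32, where 9.83% of all genes were called higher. With replicate 7 as the only Gdpd3-/- library, which is then assumed to vary like the Gdpd3+/+ libraries, 17 members were called higher against 8.42% of all genes, with a median of 0.36 against 0.22 over all genes. These 17 were Ndufa5, Ndufa7, Ndufa8, Ndufa9, Ndufa13, Ndufb5, Ndufb10 and Ndufs4, Sdhb, Uqcrq, Cox4i1, Cox5a and Cox6c, and Atp5f1, Atp5g1, Atp5l and Atp5o. After rescaling to TPM, 71 members were called higher, against 15% of all genes. Over all genes the median log2 fold change was 0.24 as deposited, 0.05 with TMM factors, -0.01 with quantile normalization and 0.50 after rescaling to TPM, whereas the members' median stayed 0.77 above that of all genes as deposited and 0.75, 0.83 and 0.79 above it in these 3 scalings. With TMM factors and with quantile normalization Sdha, Cox6a1, Cox6b2, Atp5a1 and Atp5b turned slightly below 0, and 80 members were above 0.

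**Figure D2:**
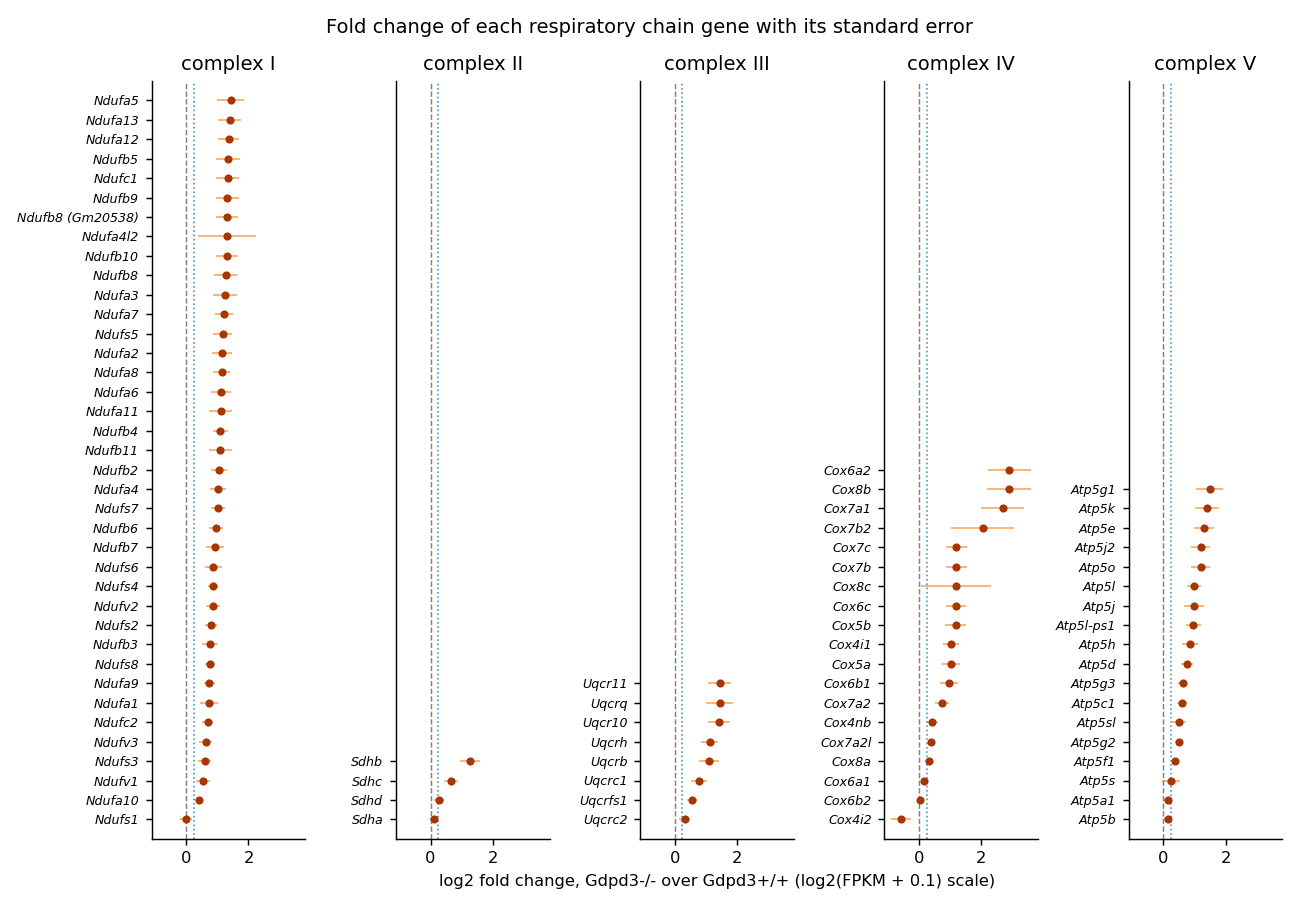
Log2 fold change of each respiratory chain gene, Gdpd3-/- over Gdpd3+/+ on the log2(FPKM + 0.1) scale, with its standard error from limma as a bar, by complex. The dashed line marks 0 and the dotted line the median of all genes tested, 0.24. Most members lie between 0.5 and 1.5, the 3 muscle isoforms Cox6a2, Cox8b and Cox7a1 lie highest at 2.69 to 2.91, and Cox4i2 lies lowest at -0.58.

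Complex I, the NADH dehydrogenase, had the most members. Ndufa4, the most abundant row under these names, is today counted as a component of complex IV, and it was at 485, 511 and 531 FPKM in Gdpd3+/+ and 1128, 1422 and 684 in Gdpd3-/- replicates 5, 6 and 7. The groups did not overlap, and the log2 fold change was 1.02 (SE 0.26, adjusted p = 0.0933). Ndufa5, an accessory subunit of the arm that takes up electrons from NADH, had the largest log2 fold change of the complex, 1.43 (SE 0.43, adjusted p = 0.123), from 83.6, 81.8 and 85.9 FPKM in Gdpd3+/+ to 299, 360.0 and 107 in Gdpd3-/-. At the other end stood Ndufs1, the largest iron-sulphur subunit, at 42.6, 39.4 and 37.8 FPKM in Gdpd3+/+ and 31.4, 51.5 and 38.8 in Gdpd3-/-. Its Gdpd3-/- libraries lay on both sides of the Gdpd3+/+ libraries, and its log2 fold change was -0.01 (SE 0.18).

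The 7 nuclear-encoded core subunits, which hold the flavin and the iron-sulphur clusters and are shared with bacteria, had a median log2 fold change of 0.77, with a range of -0.01 to 1.01. The other 31 rows of the complex, which are accessory subunits apart from Ndufa4 and Ndufa4l2, had a median of 1.11 and ranged from 0.40 to 1.43. In 6 of the 7 core subunits and in 29 of the 31 others every Gdpd3-/- library lay above every Gdpd3+/+ library, against 23.5% of all genes tested. Ndufs4, an accessory subunit named here after its values were seen, was at 59.6, 61.3 and 62.9 FPKM in Gdpd3+/+ and 122, 130 and 86.0 in Gdpd3-/-. When genes averaging under 1 FPKM were left out, it was the only one of 84 members called (limma, adjusted p = 0.0450). In that fit 3.12% of all genes were called higher, so members were not called more often than genes at large. Ndufb8 appeared as 2 overlapping rows, the second of which now carries the symbol Gm20538, so its fragments may be shared between them. Their log2 fold changes were 1.27 and 1.31.

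Complex II, succinate dehydrogenase, also works in the citric acid cycle and is the only complex with no subunit from the mitochondrial genome. Its 4 subunits differed among themselves. Sdha, the flavoprotein that oxidises succinate, was at 147, 138 and 120.4 FPKM in Gdpd3+/+ and 128, 153 and 154 in Gdpd3-/- replicates 5, 6 and 7. The groups overlapped, with a log2 fold change of 0.10 (SE 0.12, adjusted p = 0.625). Sdhb, the iron-sulphur subunit next to it, was at 87.2, 82.9 and 81.6 FPKM in Gdpd3+/+ and 227, 300.5 and 121 in Gdpd3-/-. Every Gdpd3-/- library was higher, with a log2 fold change of 1.27 (SE 0.31, adjusted p = 0.0891). The membrane anchors lay between. Sdhc was at 25.1 to 25.8 FPKM in Gdpd3+/+ and at 38.7, 55.8 and 29.5 in Gdpd3-/- (log2 fold change 0.65, SE 0.22), and Sdhd, the most abundant of the 4, was at 158 to 166 and at 159.8, 256 and 181 (0.27, SE 0.18). In Sdhd only replicates 6 and 7 exceeded the Gdpd3+/+ libraries. Without replicate 7, where 9.83% of all genes tested were called higher, Sdhb and Sdhc were called higher (limma, adjusted p = 0.00582 and 0.0335). Sdha and Sdhd were not (0.792 and 0.326).

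Complex III, the cytochrome bc1 complex, is built from catalytic subunits, a pair of large core proteins and small supernumerary subunits. Uqcr11, a small subunit, was both the most abundant member and the member of largest log2 fold change, 1.45 (SE 0.37, adjusted p = 0.0945), at 269, 261 and 244 FPKM in Gdpd3+/+ and 924, 1025 and 370.5 in Gdpd3-/-. Uqcrc2, a core protein, had the smallest, 0.31 (SE 0.18, adjusted p = 0.345), at 68.7, 68.8 and 63.4 FPKM in Gdpd3+/+ and 68.8, 109.9 and 76.3 in Gdpd3-/-. In that gene replicate 5 lay within the Gdpd3+/+ range. The other 6 genes ranged from 0.56 for Uqcrfs1, the Rieske iron-sulphur protein, to 1.44 for Uqcrq. In each of these 6 every Gdpd3-/- library was higher, against 23.5% of all genes tested.

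Complex IV, cytochrome c oxidase, showed the widest range, and its tissue isoforms stood at both ends. There are 3 nuclear-encoded subunits with a form typical of heart and skeletal muscle (Cox6a2, Cox7a1 and Cox8b) beside a form found in most tissues (Cox6a1, Cox7a2 and Cox8a). On mm9 the muscle forms lie at chr7:135348950-135349880, chr7:30969190-30971047 and chr7:148084842-148086345. Cox6a2 was at 114, 87.3 and 78.4 FPKM in Gdpd3+/+ and at 1103, 1406 and 213 in Gdpd3-/- cells (replicates 5, 6 and 7). Cox7a1 was at 125, 83.8 and 85.2 and at 946, 1332 and 190.5, in the same order. Cox8b was at 140.1, 98.2 and 85.7 and at 1202, 1728 and 234. In all 3 genes replicates 5 and 6 were far above the rest, replicate 7 was above every Gdpd3+/+ library, and replicate 1 was the highest of the Gdpd3+/+ libraries. Log2 fold changes were 2.91 (SE 0.68), 2.69 (SE 0.69) and 2.90 (SE 0.71), with adjusted p of 0.0831, 0.0945 and 0.0889, and the group means differed 9.72-fold, 8.40-fold and 9.77-fold.

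Their widespread partners differed far less. Cox6a1 was at 246, 285 and 275 FPKM in Gdpd3+/+ and 273, 319 and 307 in Gdpd3-/-, with overlapping groups and a log2 fold change of 0.16 (SE 0.11, adjusted p = 0.425). Cox8a was at 346, 386 and 356 FPKM and at 421, 492 and 433, which did not overlap, with a log2 fold change of 0.30 (SE 0.11, adjusted p = 0.161). Cox7a2 was at 197, 188 and 191 FPKM and at 327, 433 and 227, also without overlap (0.73, SE 0.22, adjusted p = 0.129). Cox6a1 carries the matches to the NRF1 motif and CCGGAAG shown above, and Cox8b the match to CAGCTG.

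The share of the muscle form in the FPKM of its isoforms changed with the libraries in the same way for all 3 subunits. Cox6a2 made up 31.7%, 23.4% and 22.1% of Cox6a2 and Cox6a1 in Gdpd3+/+ and 80.1%, 81.5% and 40.9% in Gdpd3-/- cells. Cox7a1 made up 38.8%, 30.8% and 30.9% of Cox7a1 and Cox7a2 in Gdpd3+/+ and 74.3%, 75.5% and 45.7% in Gdpd3-/-. For Cox8b the share of Cox8b and Cox8a was 28.8%, 20.3% and 19.4% in Gdpd3+/+ and 74.1%, 77.8% and 35.1% in Gdpd3-/-. Each Gdpd3-/- library exceeded each Gdpd3+/+ library, and the mean shares differed by 41.7, 31.7 and 39.5 percentage points (two-sided exact permutation test, p = 0.1 for each, the smallest that 3 libraries against 3 allow). With replicate 7 alone the differences were 15.1, 12.2 and 12.3 points.

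**Figure D3:**
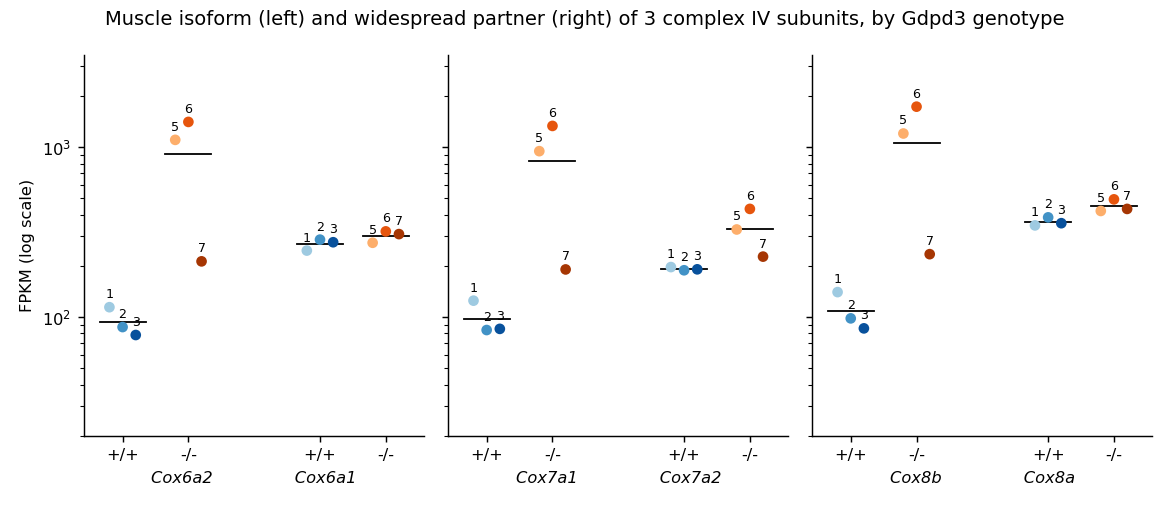
FPKM of the muscle isoform (left of each panel) and its widespread partner (right) in each library, on a log axis, with Gdpd3+/+ replicates 1 to 3 in blue, Gdpd3-/- replicates 5 to 7 in orange, the replicate number above each point and a black bar at each group's mean. The muscle isoforms lie below their partners in every Gdpd3+/+ library and above them in Gdpd3-/- replicates 5 and 6, and replicate 7 stays below its partner for all 3 genes.

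Other isoforms of complex IV were low or level. Cox6b2, a testis form, was at 39.9, 46.1 and 48.5 FPKM in Gdpd3+/+ and 43.6, 45.2 and 48.9 in Gdpd3-/- (log2 fold change 0.04, SE 0.11), whereas its widespread partner Cox6b1 was at 451, 466 and 477 and at 1081, 1211 and 554 (0.95, SE 0.29, adjusted p = 0.124). Cox7b2, another testis form, was listed at 0 in all Gdpd3+/+ libraries and in Gdpd3-/- replicate 7, and at 1.64 and 0.304 in replicates 5 and 6, which came from 19 and 6 fragments. Its partner Cox7b was at 147, 139 and 142 FPKM and at 376, 511 and 184 (1.20, SE 0.35). Cox8c, the testis form beside Cox8a, was listed at 0 in 4 libraries and rested on 26 fragments in replicate 6 and 1 fragment in replicate 2.

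Cox4i2, a form typical of lung and low oxygen, was at 2.14, 2.43 and 2.11 FPKM in Gdpd3+/+ and 2.08, 1.08 and 1.36 in Gdpd3-/-, the only member lower in every Gdpd3-/- library (log2 fold change -0.58, SE 0.31, adjusted p = 0.323). The usual form, Cox4i1, was the most abundant member of the complex over the 6 libraries, at 449.6, 454 and 461 FPKM in Gdpd3+/+ and 1022, 1298 and 604 in Gdpd3-/- (1.03, SE 0.27, adjusted p = 0.0956). Ndufa4l2, the low-oxygen relative of Ndufa4, was at 0.105, 0.398 and 0.136 FPKM and at 0.659, 2.26 and 0.104, with overlapping groups. Cox4nb and Cox7a2l, which match the naming rule, are a membrane protein complex subunit now named Emc8 and a factor that joins respiratory complexes. They were named after their values were seen, and their log2 fold changes were 0.42 and 0.40.

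Complex V, the ATP synthase, has a catalytic F1 head and a membrane part with the ring of c subunits that the protons turn. Atp5b, the catalytic beta subunit of F1, was the most abundant member and also had the smallest log2 fold change, 0.14 (SE 0.12, adjusted p = 0.495), at 354, 362 and 347 FPKM in Gdpd3+/+ and 349, 447 and 384 in Gdpd3-/-. The alpha subunit gene Atp5a1 was close to it, with 0.15 (SE 0.12), at 222, 244 and 236 FPKM and at 234, 300.0 and 250.4. In both genes replicate 5 lay within the Gdpd3+/+ range. The 5 genes of F1 had a median log2 fold change of 0.59, with 1.30 for Atp5e, the small epsilon subunit, and the 13 other rows of the complex had a median of 0.97.

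Identical c subunits are made from 3 genes that differ in their import sequences. Atp5g1 had the largest log2 fold change of the complex, 1.49 (SE 0.44, adjusted p = 0.122), at 45.5, 45.9 and 43.4 FPKM in Gdpd3+/+ and 160.5, 213 and 58.7 in Gdpd3-/-. Atp5g2 was at 129, 137 and 141 FPKM and at 199.7, 214 and 163 (0.49, SE 0.12, adjusted p = 0.0917). Atp5g3 was at 133, 141 and 141 FPKM and at 207, 258 and 178 (0.62, SE 0.14, adjusted p = 0.0831). In all 3 every Gdpd3-/- library lay above every Gdpd3+/+ library, against 23.5% of all genes tested. Of the 18 rows, Atp5sl now carries the symbol Dmac2, and Atp5l-ps1 is named as a pseudogene of Atp5l, whose fragments it may share.

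Among the Gdpd3-/- libraries the muscle marker sum and the members' summed FPKM had the same order, replicate 6, then 5, then 7. In Gdpd3+/+ replicates 1, 2 and 3 the marker sums were 1327, 927 and 899 and the member sums 10917, 10983 and 11011. These member sums lay close together (s.d. 48.2), so their order was not read. Among the members higher in replicate 6 than the Gdpd3+/+ mean, the excess in replicate 5 was a median 68.3% of that in replicate 6, and the excess in replicate 7 was 14.7%. The same medians were 68.4% and 7.69% for the 12 muscle markers, 68.7% and 7.79% for the 3 muscle isoforms, and 67.8% and 14.9% for the other 84 members. Of all 24689 genes tested, the 13194 that were higher in replicate 6 had 52.0% and 32.8%. The 8534 such genes among the 15103 that averaged 1 FPKM or more had 64.0% and 47.5%. Choosing genes by replicate 6 kept 86 of the 87 members but far fewer of the other genes. The choice itself affects such ratios, so these background medians are not a like comparison. Without the muscle isoforms the summed FPKM of the members differed 2.02-fold between the group means. Leaving them out removes only these 3 genes, and any muscle RNA of the other 84 members remains in the sum. The muscle markers' own log2 fold changes were 2.51 to 2.91, with adjusted p of 0.0802 to 0.162, so that none of them passed the test either. The members' share of fragments in Gdpd3+/+ replicates 1, 2 and 3 was 1.37%, 1.38% and 1.37%. What part muscle RNA has in the members' values was not tested.

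**Figure D4:**
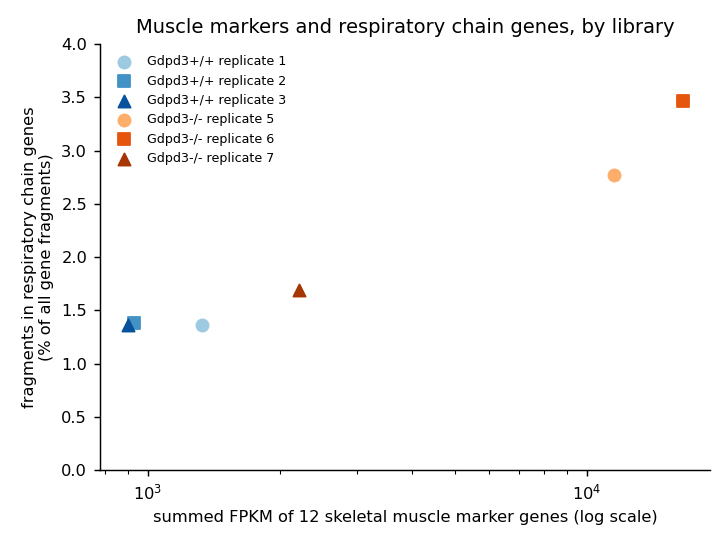
Percent of all gene fragments that fell in the 87 respiratory chain genes against the summed FPKM of 12 skeletal muscle markers on a log axis, with a symbol for each of the 6 libraries. Gdpd3-/- replicates 5 and 6 are high in both, at 2.77% and 3.46%, and replicate 7 is at 1.69% with a marker sum of 2209.7, above the Gdpd3+/+ libraries at 1.37% to 1.38%.

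The log2 fold change was related to the length of the coding sequence, which the rule did not use. Members are short, with a median coding length of 410 bases against 1314 bases over all protein-coding genes that averaged 1 FPKM or more. Across 86 members with a coding length, Pearson's r between the log2 fold change and the log2 coding length was -0.52, and -0.54 without the muscle isoforms. These points are genes from the same 6 libraries and not independent replicates, so the value is a description. The third of the members with the shortest coding sequences, up to 316 bases, had a median log2 fold change of 1.20, the next, up to 516 bases, had 1.03 and the longest had 0.61. In protein-coding genes that are not members the medians over the same length limits were 0.38, 0.32 and 0.07. The members' median was above that of the other genes in each length class. The longest class has no upper limit and was not matched in length. Its median coding length was 805.5 bases in members and 1447.5 bases in the other genes. The longest coding sequences included Ndufs1, Sdha, Atp5a1 and Atp5b, whose log2 fold changes were -0.01 to 0.15, and Sdhb lay high for its length.

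**Figure D5:**
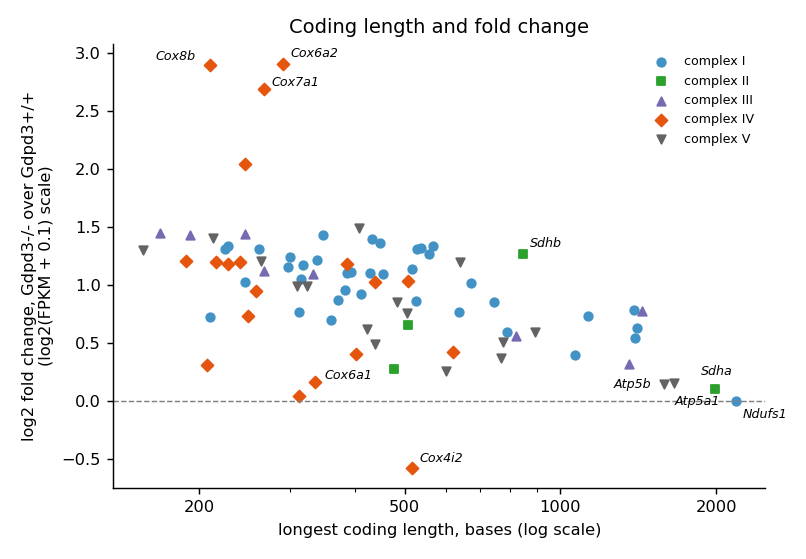
Log2 fold change, Gdpd3-/- over Gdpd3+/+ on the log2(FPKM + 0.1) scale, against the longest annotated coding length in bases on a log axis, for 86 respiratory chain genes by complex. Values fall with length, from a median of 1.20 in the shortest group to 0.61 in the longest, and the 3 muscle isoforms lie above the other genes at 2.69 to 2.91.

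Members with the NRF1 motif in the promoter had a median log2 fold change of 0.87 (17 rows) against 1.02 (51 rows) without it, and those with CCGGAAG had 0.96 (16 rows) against 1.08 (52 rows). With TATAAA the median was 1.22 (7 rows) and with CAGCTG 1.15 (6 rows).

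Genes related to the chain were read beside it. The 5 subunit and carrier genes outside the naming rule (Ndufab1, Cyc1, Cycs, Atpif1 and Usmg5) had a median log2 fold change of 1.08. In all 5 every Gdpd3-/- library was higher, against 23.5% of all genes tested, though none passed the test. Cycs, the gene of cytochrome c, was at 60.6, 54.2 and 53.5 FPKM in Gdpd3+/+ and 133, 212 and 77.4 in Gdpd3-/- (1.21, adjusted p = 0.109). Atpif1, whose protein inhibits ATP hydrolysis by the synthase, was at 156, 175 and 166 and at 186, 212 and 193 (0.25, adjusted p = 0.195). The 13 protein-coding genes of the mitochondrial genome, which supply the remaining subunits, had a median of 0.42 with a range of 0.12 to 1.12, and 7 of them were higher in every Gdpd3-/- library, against 23.5% of all genes tested.

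Of 77 mitochondrial ribosomal protein genes, 4 were called higher (1.09% of all genes tested were) and none lower, with a median of 0.36. Of 42 assembly factor genes none was called (15 had an unadjusted p under 0.05, which 22.2% of all genes tested had), with a median of 0.36. Of 12 genes of regulators of respiratory chain transcription none was called (3 had an unadjusted p under 0.05, against the same 22.2%), with a median of 0.10. Among the regulators, Nrf1 was at 7.37, 7.42 and 7.91 FPKM in Gdpd3+/+ and 7.18, 8.46 and 7.98 in Gdpd3-/- (0.05, adjusted p = 0.827), and Ppargc1a, the coactivator that is abundant in oxidative tissues, was below 1 FPKM in every library. Its relative Ppargc1b was at 1.64, 1.86 and 1.66 FPKM and at 3.54, 4.11 and 2.73, without overlap (0.95, adjusted p = 0.0952).

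Of the 87 members, 20 share exon positions with another gene on mm9, and whether counting used the strand is not given in the sources used here. The 67 members that overlap no other gene had a median log2 fold change of 0.95. Counting error was small for most members: among the 84 that averaged 1 FPKM or more, the lowest number of fragments in any library was 27, for Cox4i2.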

How the data were processed

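RNA from sorted LT-CML stem cells was amplified with the SMART-Seq v4 kit, fragmented with Nextera XT and sequenced as paired-end reads of 150 bases. Per the labels and the submitters' processing notes, reads were trimmed (Trimmomatic, Trim Galore, cutadapt 1.16), mapped to mm9 with STAR 2.6.1a and counted with featureCounts 1.6.1. The authors deposited FPKM values for 36976 genes and a DESeq2 table of their own comparison, which was not used. FPKM times gene length was checked for the lowest nonzero values, 5472 to 8908 per library. All of these were whole numbers of hundredths of a fragment (tolerance 0.001) at the depths given. Fractional counts thus underlie the values checked, and no count model was run. Fragment numbers ignore duplicates.

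On log2(FPKM + 0.1), limma 3.58.1 (R 4.3.3) was run with an intensity trend and genotype as its single term for 24689 genes averaging 0.05 FPKM or more, and p-values were adjusted by Benjamini-Hochberg over all of them, with a threshold of 0.05. Fold changes on this scale understate changes of low genes. Isoform shares were compared by exact permutation (SciPy 1.17.1). The limma fit was tested on simulated data in which both groups varied like the Gdpd3+/+ libraries. That test did not cover the wider spread of the members among the Gdpd3-/- libraries. Alternatives were pseudocounts, filters, scalings, variance models and left-out libraries. The members, gene lists and tests were chosen with earlier results of these data known. Named were, for each complex, members with an adjusted p under 0.05, the most abundant member and those of largest and smallest log2 fold change among members averaging 1 FPKM or more, all tissue isoforms, the c subunit genes and the Sdh genes. Coding lengths are from GENCODE M21 and promoters from RefSeq (GRCm38.p6), matched by identifier or symbol. No mm9 sequence was used.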

Additional observations from a re-analysis of the deposited data

How the results depend on the processing

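The count of 0 members called became 1 with a mean FPKM of at least 1, 71 after rescaling to TPM and 17 without both Gdpd3-/- replicates 5 and 6, a choice made after seeing the data. It ranged from 0 to 70 when each library was left out in turn, with 70 without Gdpd3-/- replicate 7 and 0 without any of the others, and it was 0 under both other pseudocounts, without a filter, with TMM or quantile scaling, without the intensity trend and with array weights. All genes called, 422 as reported, numbered 225 with a pseudocount of 1, 213 without a filter, 673 with a mean FPKM of at least 1, 3962 after rescaling to TPM, 153 without the intensity trend, 240 with array weights, 2294 without both replicates 5 and 6, and 0 to 3413 with each library left out (0 without Gdpd3+/+ replicate 1, 1 without replicate 2, 21 without replicate 3, 187 without Gdpd3-/- replicate 5 and 3413 without replicate 7). Of these, 270 were higher and 152 lower as reported, 118 and 252 with TMM factors, 119 and 206 with quantile scaling and 3708 and 254 after rescaling. The cause was not tested.

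The median log2 fold change of the members was 0.75 to 1.32 with each library left out and 0.36 without both replicates 5 and 6. The ratio of summed FPKM was 1.84 to 2.69 with each library left out, 2.69 after rescaling, 1.92 with TMM factors and 1.28 without both. Without both, the muscle isoform shares differed by 15.1 (Cox6a2), 12.2 (Cox7a1) and 12.3 (Cox8b) percentage points.

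Signs turned for genes near 0. With TMM and quantile scaling the log2 fold changes were -0.11 and -0.11 for Sdha, -0.067 and -0.065 for Atp5b, -0.060 and -0.065 for Atp5a1, -0.054 and -0.033 for Cox6a1 and -0.17 and -0.11 for Cox6b2. With each library left out, Cox6b2 ranged from -0.043 (without Gdpd3+/+ replicate 1) to 0.097 and Ndufs1 from -0.19 to 0.16 (without Gdpd3-/- replicates 6 and 5), and Ndufs1 was at 0.27 after rescaling. Ndufa4l2 was at -0.50 without both replicates 5 and 6.

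No paired analysis was possible because the groups share no replicate numbers. Depth limited Cox7b2, Cox8c and Ndufa4l2, which rested on few fragments.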
